A study of Homo sapiens with 2 samples.

Results

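The genes described here encode F-box proteins, ubiquitin-specific proteases and their relatives, measured in A549, an established epithelial cell line from a human lung adenocarcinoma. They were taken by symbol: names starting with USP, FBXO, FBXL, FBXW, OTUD or KLHL and a number, and the numbered cullins. This gave 165 genes with 171 probe sets, of 14884 named genes on the arrays. The 7 classes held 54 USP, 33 FBXO, 16 FBXL, 10 FBXW, 8 OTUD, 8 CUL and 36 KLHL genes. Of the 165, 156 are protein-coding in RefSeq (GRCh38.p14) and 9 are antisense, divergent or pseudogene transcripts. RefSeq lists 193 protein-coding symbols of these forms, 25 of them near-identical USP17L copies, and those without a named probe set were not analysed here.

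Cells had been kept for 4 h in static culture or for 4 h in stretch culture, and total RNA of each condition was hybridised to 1 array. No other treatment or genetic change is named for either group. How strongly, how often and with which device cells were stretched, and how many cultures each RNA came from, is not given in the sources used here. With 1 array per condition the number of arrays limits the precision, no value has a replicate error, no test across samples exists, and a difference compares these 2 arrays. Values are log2 signals, and a difference is stretch minus static throughout.

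Ubiquitin is attached to proteins by a cascade of activating, conjugating and ligating enzymes, and chains of it send many proteins to the proteasome. Cullins are the scaffolds of the largest ligase family: CUL1 holds F-box proteins through SKP1, CUL3 holds BTB proteins such as the KLHL family, CUL4A and CUL4B hold DDB1 with DCAF proteins, and CUL2 and CUL5 hold SOCS-box type receptors through elongins. The F-box or KLHL protein picks the substrate. FBXL proteins do so with leucine-rich repeats, FBXW proteins with WD40 repeats, KLHL proteins with kelch repeats and FBXO proteins with other domains. Deubiquitinases of the USP and OTU families remove or trim the chains. Enzymes of these families take part in the turnover of MYC, cyclins, MCL1 and p53.

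The promoter windows below are those of the members with the largest positive differences in each class for which a single window is listed, with USP5 added as the close relative of USP13. They run from 250 bases before to 50 bases after the gene start and come from RefSeq, build GRCh38.p14, written 5′ to 3′ on the strand of the gene. Capitals mark matches on either strand to any of 7 motifs: GGAATG (TEAD), TGANTCA (AP-1), TGACGTCA (CRE), CACGTG (E-box), TGCGCA (NRF1), CCAAT (CAAT box) and CCGGAAG (ETS), where N is any base. Matches of different motifs were searched independently and may overlap.
USP13 promoter (chr3:179652790-179653089, plus strand): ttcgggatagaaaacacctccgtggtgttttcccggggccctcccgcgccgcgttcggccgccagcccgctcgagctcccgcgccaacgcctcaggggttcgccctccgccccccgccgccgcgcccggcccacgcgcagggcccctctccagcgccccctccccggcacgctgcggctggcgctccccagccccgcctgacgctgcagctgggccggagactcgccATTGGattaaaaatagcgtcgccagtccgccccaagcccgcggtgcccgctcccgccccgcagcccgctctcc
USP5 promoter (chr12:6851900-6852199, plus strand): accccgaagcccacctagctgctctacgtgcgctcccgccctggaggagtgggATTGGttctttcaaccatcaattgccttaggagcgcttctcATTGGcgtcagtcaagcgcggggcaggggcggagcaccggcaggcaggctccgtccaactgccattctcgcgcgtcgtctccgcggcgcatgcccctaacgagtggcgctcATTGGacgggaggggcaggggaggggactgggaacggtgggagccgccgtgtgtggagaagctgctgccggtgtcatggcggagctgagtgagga
FBXO21 promoter (chr12:117190421-117190720, minus strand): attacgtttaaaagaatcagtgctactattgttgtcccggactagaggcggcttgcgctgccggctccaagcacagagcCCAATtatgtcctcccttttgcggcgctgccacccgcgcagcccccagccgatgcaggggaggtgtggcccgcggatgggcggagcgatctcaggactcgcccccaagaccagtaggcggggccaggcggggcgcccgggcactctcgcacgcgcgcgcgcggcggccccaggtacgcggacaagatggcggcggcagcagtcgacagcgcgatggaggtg
FBXL12 promoter (chr19:9819030-9819329, minus strand): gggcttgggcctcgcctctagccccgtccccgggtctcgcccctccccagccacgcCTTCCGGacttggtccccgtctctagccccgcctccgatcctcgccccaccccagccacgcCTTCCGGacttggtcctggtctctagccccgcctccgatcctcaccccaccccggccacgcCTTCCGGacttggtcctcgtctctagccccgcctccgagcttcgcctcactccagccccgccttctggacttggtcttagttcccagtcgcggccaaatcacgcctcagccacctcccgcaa
FBXW5 promoter (chr9:136944689-136944988, minus strand): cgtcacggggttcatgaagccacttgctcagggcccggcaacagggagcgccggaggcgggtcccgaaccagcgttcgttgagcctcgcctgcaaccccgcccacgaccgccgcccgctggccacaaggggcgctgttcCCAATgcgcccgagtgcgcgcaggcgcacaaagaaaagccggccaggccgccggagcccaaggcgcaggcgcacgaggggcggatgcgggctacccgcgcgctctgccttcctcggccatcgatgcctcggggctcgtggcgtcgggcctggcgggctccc
OTUD7B promoter (chr1:150010677-150010976, minus strand): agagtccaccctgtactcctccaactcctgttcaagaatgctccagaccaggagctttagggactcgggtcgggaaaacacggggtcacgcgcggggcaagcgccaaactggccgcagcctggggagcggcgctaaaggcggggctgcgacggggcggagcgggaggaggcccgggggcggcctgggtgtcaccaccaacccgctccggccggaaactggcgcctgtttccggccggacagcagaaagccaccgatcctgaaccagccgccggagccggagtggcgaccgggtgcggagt
CUL5 promoter (chr11:108008648-108008947, plus strand): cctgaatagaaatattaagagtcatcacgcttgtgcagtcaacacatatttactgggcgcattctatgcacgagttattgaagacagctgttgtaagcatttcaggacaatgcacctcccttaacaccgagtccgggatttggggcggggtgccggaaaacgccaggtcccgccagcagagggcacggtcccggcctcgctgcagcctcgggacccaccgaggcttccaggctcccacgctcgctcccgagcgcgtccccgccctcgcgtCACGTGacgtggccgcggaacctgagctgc
KLHL18 promoter (chr3:47282694-47282993, plus strand): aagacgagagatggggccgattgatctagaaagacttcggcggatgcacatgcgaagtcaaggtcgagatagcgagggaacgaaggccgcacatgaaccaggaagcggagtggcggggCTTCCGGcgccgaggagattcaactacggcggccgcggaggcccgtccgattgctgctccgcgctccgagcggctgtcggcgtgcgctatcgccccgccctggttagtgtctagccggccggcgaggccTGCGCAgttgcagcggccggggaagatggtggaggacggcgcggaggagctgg

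A window was found for 127 members, and 36 of these have more than 1 listed window, of which the first was searched. USP5 held 3 CAAT boxes and USP13 held 1. FBXO21 and FBXW5 held 1 CAAT box each, FBXL12 held 3 ETS matches, KLHL18 held 1 ETS and 1 NRF1 match, CUL5 held 1 E-box at base 21 after the start, and OTUD7B held none of the 7. Among the 16 windows of members at least 2-fold higher under stretch, 0 held AP-1 or CRE, 3 TEAD (18.8%), 2 the E-box (12.5%), 2 NRF1 (12.5%), 6 CAAT (37.5%) and 4 ETS. Over all 27305 genes with a window the shares were 7.76% for AP-1, 1.98% for CRE, 14.0% for TEAD, 7.43% for the E-box, 8.42% for NRF1, 35.7% for CAAT and 10.7% for ETS. Over the 10749 windows of named genes they were 5.92%, 2.62%, 11.7%, 9.02%, 11.1%, 36.0% and 15.0% in the same order. Over the windows of all 127 members they were 3.94%, 1.57%, 12.6%, 7.87%, 15.0%, 26.8% and 19.7% in the same order. The windows were rich in G and C, with a median of 70.0% in the 16 and 67.7% in the 127 against 63.3% in named genes and 58.3% in all. These matches describe the letters in the windows only.

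As a check of the label, the epithelial keratin KRT18 had signals of 10.29 (static) and 11.0 (stretched), KRT7 5.41 and 7.56, KRT8 4.60 and 5.47, and the adhesion molecule EPCAM 5.30 and 4.71. KRT19, at 3.77 and 3.78, lay in the range of the background guide described below on both arrays. CDH1 and the 7 metabolic genes by which A549 cells are often recognised have no named probe set here. The fibroblast genes DCN and LUM and the endothelial genes PECAM1, VWF and KDR lay between 1.29 and 3.04 on both arrays. Of the leukocyte markers, LYZ stood at 2.40 and 1.90, CD14 at 5.13 and 5.53, and CD68, which encodes a lysosomal glycoprotein, at 7.51 and 8.58. The part of other cell types in the results was not tested. Signals of 24 genes of unrelated tissues served as a guide to background, and their 95th percentile, 4.53, is called the background bound below.

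**Figure D1:**
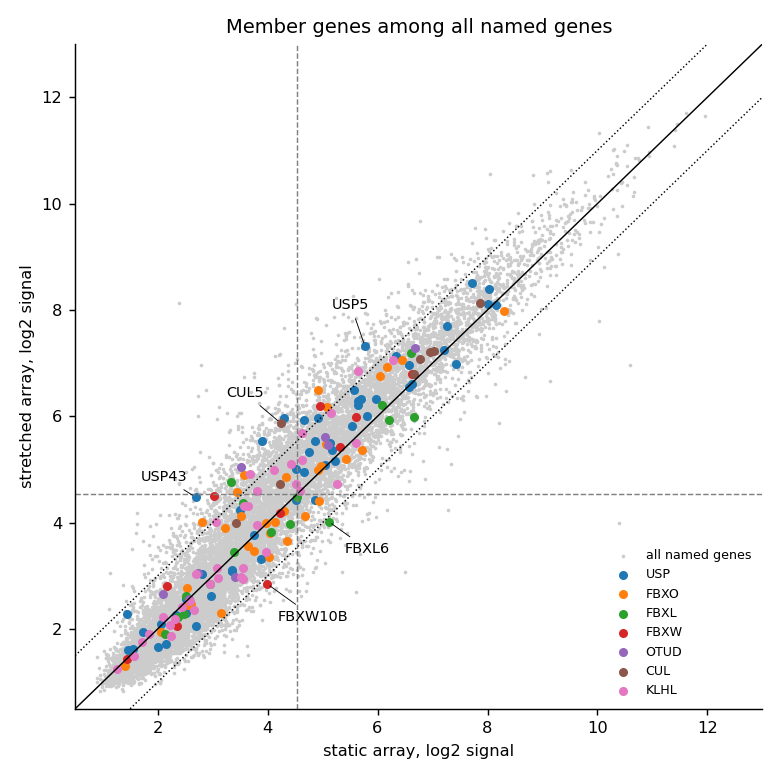
Log2 signal on the stretched array (vertical) against the static array (horizontal), 1 point per gene: all 14884 named genes in grey and the 165 members coloured by class. The solid line marks equal signals, the dotted lines a 2-fold difference and the dashed lines the background bound of 4.53. USP43, CUL5 and USP5 lie above the upper dotted line, FBXL6 and FBXW10B below the lower.

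Under stretch, higher members outnumbered lower members, as did named genes in general. At 1.5-fold or more, 44 of the 165 members (26.7%) were higher, where the background over all named genes was 20.7%. At the same size in the other direction, 8 members (4.85%) were lower, against 8.02% of all named genes. The remaining 113 lay between. At 2-fold, 19 members (11.5%) were higher and 2 lower, against 9.07% and 1.93% of all named genes. The median difference of the members was 0.11, with quartiles of -0.14 and 0.60, and that of all named genes was 0.06.

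Read against genes of like signal, the brightest members stood near the background share. Members had brighter probe sets than named genes at large, with a median mean signal of 4.21 against 3.63, and bright genes were more often higher under stretch. Of the 74 members whose mean signal reached the background bound, 26 (35.1%) were at least 1.5-fold higher, against 37.3% of all named genes there, and 2 (2.70%) were lower, against 4.45%. Their median difference was 0.37, against 0.39. Of the 44 members with a mean signal below 3, 2 (4.55%) were higher and 2 lower, against 3.40% and 9.87%. Between 3 and the bound, 16 of 47 members (34.0%) were higher and 4 (8.51%) lower, against 23.9% and 10.4%. The median of those 47 was -0.03 and that of all named genes there 0.12, so in the middle range the share past 1.5-fold was above the background and the median below it.

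The direction of the members as a group followed the scaling of the arrays. Members higher made up 84.6% of the members past 1.5-fold, against 72.0% for all named genes. After quantile normalization these shares were 55.8% and 53.8%, after a loess curve on mean signal 61.7% and 60.2%, after centring on the array medians 93.0% and 82.0%, and after centring on 10 reference genes 33.9% and 27.0%. The median of all named genes moved from 0.06 to 0.16 with median centring and to -0.32 with reference genes. Of the 10 reference genes, 4 were themselves at least 1.5-fold higher and 0 lower. All 10 had a mean signal at or above the background bound. Their median difference of 0.375, which that centring subtracts, was near the 0.39 of all named genes at that signal. Whether they form a stable reference here was not tested. Of the 21 members past 2-fold as deposited, 20 remained past 2-fold with median centring, 14 with loess, 13 with quantile normalization and 11 with reference genes.

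**Figure D2:**
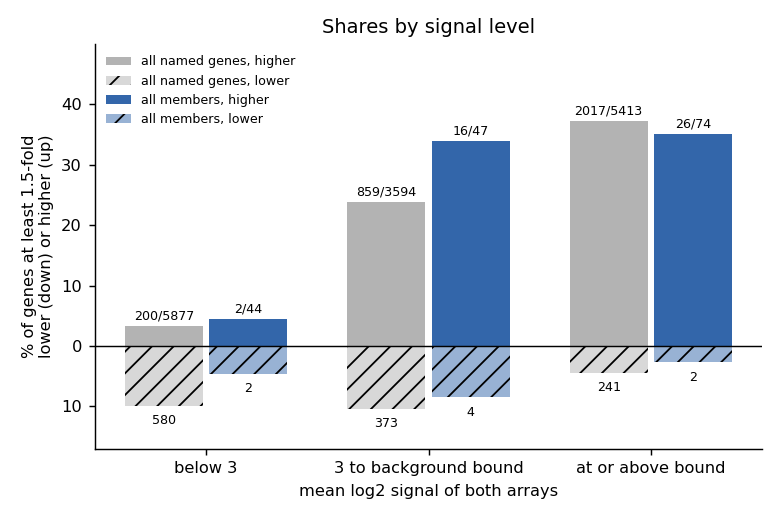
Percent of genes at least 1.5-fold higher (above 0) or lower (below 0, hatched) on the stretched array, in 3 ranges of mean log2 signal, for all named genes (grey) and the members (blue); labels give gene counts. Members and all named genes stand at 35.1% and 37.3% in the brightest range, and at 34.0% and 23.9% in the middle range.

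The 7 classes overlapped widely. Higher by 1.5-fold or more were 14 of 54 USP (25.9%), 10 of 33 FBXO (30.3%), 3 of 16 FBXL (18.8%), 3 of 10 FBXW, 2 of 8 OTUD, 1 of 8 CUL (12.5%) and 11 of 36 KLHL genes (30.6%), beside 20.7% of all named genes. Lower genes numbered 1 in USP, 3 in FBXO, 2 in FBXL, 1 in FBXW, 1 in KLHL and 0 in OTUD and CUL, where 8.02% of all named genes were lower. Median differences were 0.47 for OTUD, 0.29 for CUL, 0.19 for USP, 0.14 for FBXW, 0.05 for KLHL, -0.08 for FBXO and -0.13 for FBXL. Those of USP and KLHL turned negative with reference genes, those of CUL and FBXW also with quantile normalization and loess, that of FBXO turned positive with median centring, and those of OTUD and FBXL kept their sign under these 4 scalings. The classes also differ in signal: 32 of 54 USP genes and 6 of 8 cullins reached the background bound, against 11 of 36 KLHL and 18 of 49 FBXO and FBXL genes. Within the genes at or above the bound, 11 of 32 USP (34.4%), 5 of 13 FBXO (38.5%), 6 of 11 KLHL (54.5%), 1 of 5 FBXL, 1 of 4 FBXW, 1 of 3 OTUD (33.3%) and 1 of 6 CUL genes (16.7%) were higher, beside 37.3% of all named genes at that signal. No class comparison was tested, since genes of 1 array pair are not replicates.

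**Figure D3:**
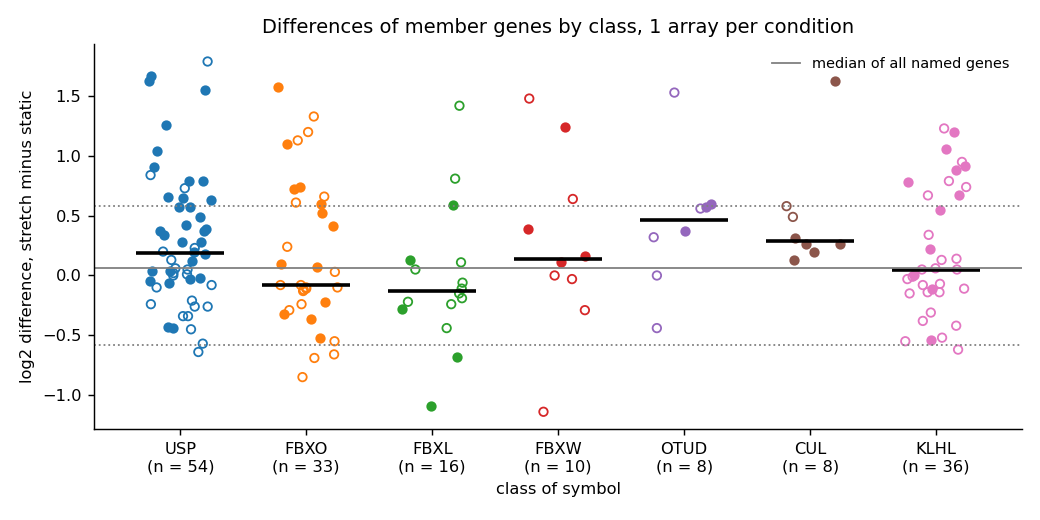
Log2 difference, stretch minus static, of each member by class; filled points have a mean signal at or above the background bound, black bars are class medians, the grey line is the median of all named genes (0.06) and dotted lines mark 1.5-fold. Class medians lie between -0.13 (FBXL) and 0.47 (OTUD), and that of FBXO changes sign with median centring, those of USP, KLHL, CUL and FBXW with reference genes, and those of CUL and FBXW also with quantile normalization and loess.

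Among the scaffolds, CUL5 stood apart from the other cullins. CUL5, which pairs with SOCS-box receptors, went from 4.24 to 5.87, a difference of 1.63 (3.10-fold). Its static signal lay below the background bound and its stretched signal above it. The 7 other cullins were between 0.13 and 0.58 higher, with a median of 0.26, and 0 of them passed 1.5-fold. CUL1, the scaffold of F-box ligases, went from 7.87 to 8.13, and CUL3, the scaffold of KLHL ligases, from 7.03 to 7.23. CUL2, which serves VHL, went from 6.95 to 7.21. CUL4A went from 6.77 to 7.08 and CUL4B from 6.66 to 6.79. CUL7 (4.23 to 4.72) and CUL9 (from 3.42), the large cullins linked to p53, differed by 0.49 and 0.58. With reference genes the median of the cullins was -0.09, while CUL5 remained at 1.25.

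Of the FBXO genes, 5 of 33 (15.2%) were 2-fold or more higher and 0 lower, beside 9.07% and 1.93% of all named genes. FBXO21 went from 4.92 to 6.50 (1.58, 2.99-fold), with both signals above the background bound. FBXO42, a receptor reported to act on p53, went from 3.57 to 4.90 (1.33). FBXO30, known from muscle wasting and mitosis, went from 5.08 to 6.18 (1.10). FBXO33 went from 3.45 to 4.58 (1.13) and FBXO48 from 2.81 to 4.01 (1.20), the latter below the background bound on both arrays. For 3 of the 5, all but FBXO21 and FBXO30, the static signal was in that range.

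A second group of FBXO genes differed by 1.5-fold to 2-fold. FBXO22, a receptor for BACH1 and for histone demethylases of the KDM4 family, went from 6.18 to 6.92, and FBXO28 from 6.04 to 6.76. FBXO7, mutated in a form of parkinsonism, went from 6.45 to 7.05 (0.60). FBXO5, the EMI1 inhibitor of the anaphase-promoting complex, went from 3.23 to 3.89 and FBXO10 from 3.52 to 4.13, both in the background range. FBXO22 has a second probe set, dim at 2.68 and 2.45, with a difference of -0.23.

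At the other end of the class, 3 genes (9.09%) were lower by 1.5-fold or more, beside 8.02% of all named genes. All 3 had both signals below the bound. FBXO39 went from 3.16 to 2.31 (-0.85), FBXO36 from 4.35 to 3.66 (-0.69) and FBXO32, the muscle atrophy factor atrogin-1, from 4.02 to 3.36 (-0.66). FBXO44 stood at -0.55 and FBXO8 at -0.52. FBXO11, a receptor for BCL6 with the brightest probe set of the class, had 8.30 and 7.98, a difference of -0.32. The related F-box genes FBXO2 (-0.29), FBXO6 (-0.08), FBXO27 (-0.36) and FBXO44 lay on the same side as deposited, where the class median was -0.08. FBXO2 and FBXO6 lay in the background range on both arrays, and FBXO44 on the stretched array.

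Among the FBXL genes, 3 of 16 (18.8%) were higher by 1.5-fold or more, beside 20.7% of all named genes. Lower were 2 (12.5%), beside 8.02%. FBXL6 went from 5.11 to 4.02 (-1.09, 0.47-fold), its stretched signal in the background range. FBXL4, a mitochondrial outer-membrane F-box protein that restrains mitophagy and is mutated in a mitochondrial DNA depletion syndrome, went from 6.67 to 5.99 (-0.68), bright on both arrays. FBXL17, which removes wrongly paired BTB dimers, went from 6.21 to 5.93, and FBXL14, a receptor for SNAI1, from 4.41 to 3.97 in the background range. These 4 genes were lower on the stretched array, 2 of them past 1.5-fold. In contrast, FBXL12 went from 3.34 to 4.76 (1.42), its static signal in the background range. FBXL5, the iron-sensing receptor that degrades IRP2, went from 6.60 to 7.19 (0.59). FBXL18 stood at 0.81 (3.55 to 4.36), but its second probe set gave 3.22 and 2.62, a difference of -0.60. Both probe sets of FBXL18 lay in the background range. FBXL20 (6.09 to 6.22) differed by 0.13.

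Among the FBXW genes, FBXW5 and FBXW4 were higher and FBXW10B lower. FBXW5, a receptor for the centriole protein SASS6, went from 4.96 to 6.20 (1.24, 2.36-fold). FBXW4 went from 3.02 to 4.50 (1.48) and its pseudogene FBXW4P1 from 2.17 to 2.81 (0.64), all in the background range. FBXW10B went from 3.99 to 2.85 (-1.14), in that range too, and its close copy FBXW10 from 2.35 to 2.06. The signals of a gene and its near-identical copy cannot be told apart with certainty. FBXW11, the β-TrCP2 receptor for β-catenin and IκB, went from 5.31 to 5.42, FBXW2 from 6.63 to 6.79, and FBXW8, the partner of CUL7, from 5.60 to 5.99.

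Of the KLHL receptors, 3 of 36 (8.33%) were 2-fold or more higher, near the 9.07% of all named genes, and 0 lower. KLHL9, which directs Aurora B in mitosis with KLHL13, went from 5.65 to 6.85 (1.20), bright on both arrays. KLHL18 went from 3.68 to 4.91 (1.23) and KLHL36 from 4.63 to 5.69 (1.06). KLHL20, a receptor for DAPK1 and PML, went from 5.15 to 6.07 (0.92) and KLHL12, which modifies the COPII coat protein SEC31, from 4.11 to 4.99 (0.88). KLHL5 (6.28 to 7.06), KLHL29 (3.07 to 4.02), KLHL4 (3.81 to 4.60), KLHL8 (3.57 to 4.31), KLHL21 (3.65 to 4.32) and KLHL42 (4.43 to 5.10) also passed 1.5-fold. KLHL29, KLHL8 and KLHL21 lay in the background range on both arrays, and KLHL18, KLHL12, KLHL4 and KLHL42 on the static array. The 2 dimmer probe sets of KLHL42 gave 0.18 and -0.28. KLHL25 was the lower gene past 1.5-fold, from 3.56 to 2.94 (-0.62), in the background range on both arrays. KLHL15, a receptor for a regulatory subunit of phosphatase PP2A, went from 5.26 to 4.72 (-0.54). The 13 KLHL genes with a mean signal below 3, among them the muscle genes KLHL40 and KLHL41 and the testis gene KLHL10, lay between -0.38 and 0.34. KEAP1, the kelch receptor of NRF2 that the symbol rule does not take in, went from 5.26 to 7.02 (1.76).

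Of the ubiquitin-specific proteases, 6 of 54 (11.1%) were 2-fold or more higher, near the 9.07% of all named genes, and 0 lower. USP13 went from 4.30 to 5.97 (1.67, 3.18-fold) and its close relative USP5, also called isopeptidase T, which takes apart unanchored chains, from 5.77 to 7.32 (1.55, 2.93-fold). USP19, which has a form anchored in the endoplasmic reticulum, went from 3.90 to 5.53 (1.63). USP12, which works with the WD40 protein UAF1, went from 4.67 to 5.93 (1.26), and USP37, a cyclin A protease of S phase entry, from 4.92 to 5.96 (1.04). USP43 had the largest difference of all members, 1.79, from 2.69 to 4.48, both below the background bound. The static signals of USP13 and USP19 lay in that range as well.

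**Figure D4:**
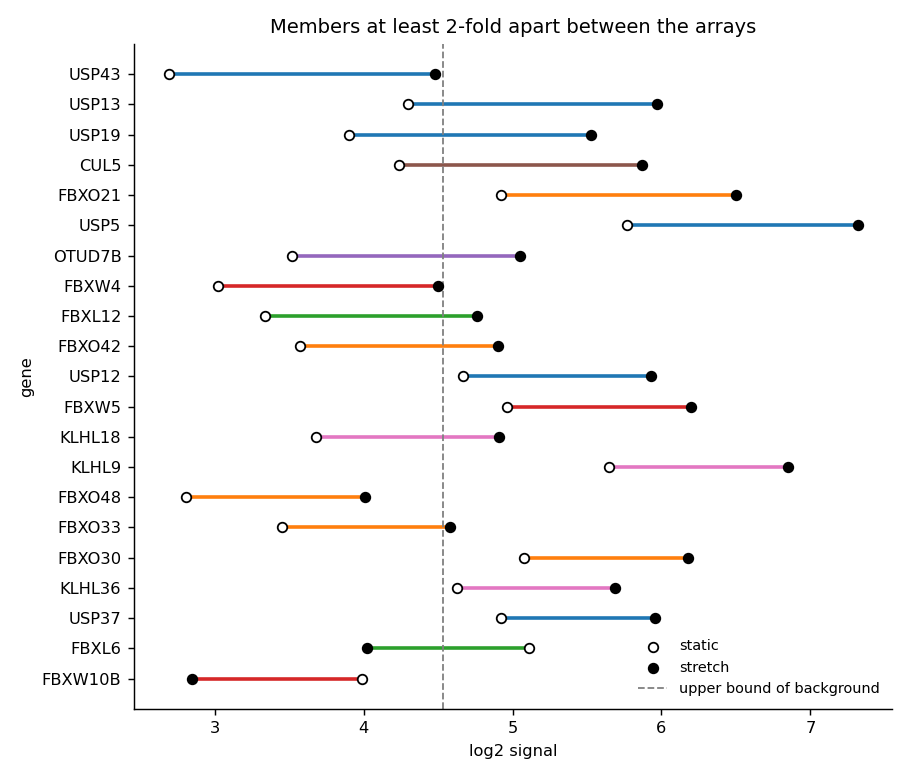
Log2 signal on the static (open) and stretched (filled) array for the 21 members at least 2-fold apart, ordered by difference and coloured by class; the dashed line is the background bound of 4.53. For 11 of the 19 higher members the open point lies left of the dashed line, and USP5, FBXO21, KLHL9, FBXW5, FBXO30, USP12, USP37 and KLHL36 lie right of it on both arrays.

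Several bright USP genes differed by 1.5-fold to 2-fold. USP22, the protease of the SAGA coactivator complex, went from 7.71 to 8.50 and USP1, which acts on FANCD2 and PCNA, from 6.34 to 7.13, a difference of 0.79 for each. USP53, a protein of tight junctions, went from 5.58 to 6.49 (0.91). USP4 stood at 0.66, USP24 at 0.65 and USP31 at 0.63, with stretched signals of 5.53, 6.29 and 6.33. USP45 went from 3.50 to 4.23, in the background range, and the divergent transcript USP27X-DT from 1.44 to 2.28, at the lowest signals. Other bright probe sets differed by less than 1.5-fold. USP14, which sits on the proteasome, went from 8.15 to 8.10, USP34 was higher by 0.12, USP7, the protease of MDM2 and p53, went from 8.02 to 8.39, USP47 from 7.27 to 7.69, and USP8, of endosomal sorting, from 7.20 to 7.24. USP25 went from 7.42 to 6.99 (-0.43). USP6, a gene of hominoid primates, was the USP gene past 1.5-fold lower, from 2.69 to 2.05 (-0.64) in the background range. USP2, whose second probe set gave 0.16, stood at -0.57.

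Some symbols of the class do not name active ubiquitin proteases. USP18 removes the ubiquitin-like ISG15 and was higher by 0.49, from 4.51. USP39 is a splicing factor without protease activity and went from 5.53 to 5.81. USP6NL, which encodes a GTPase-activating protein for RAB proteins, went from 5.98 to 6.32. The 4 measured USP17L symbols, copies of a multigene family, lay between 1.67 and 3.35 with differences of -0.34 to 0.01. USP17L12 and USP17L9P gave the same values, 3.35 and 3.09, and cannot be separated.

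OTUD7B, also called Cezanne, a restraint on NF-κB signalling, had the largest difference among the OTU genes, from 3.52 to 5.05 (1.53). Its static signal was in the background range. OTUD5, also called DUBA, went from 6.68 to 7.28 (0.60), OTUD6B from 5.04 to 5.61 (0.57) and OTUD4 from 5.09 to 5.46 (0.37). These 3 bright genes were thus within a narrow span. OTUD3 (2.09 to 2.65), OTUD1 (2.73 to 3.05), OTUD7A (2.57 on both arrays) and OTUD6A (3.41 to 2.97) stayed in the background range.

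Pairs of closely related members are given side by side as a description. Of 15 pairs of related genes, set up with the values known, both were past 1.5-fold higher in 1 pair, 1 gene in 6 pairs and neither in 8, which is 8 of 30 genes (26.7%), the same share as over all members. USP5 and USP13 were the pair with both higher, 0.12 apart in their differences. USP12 and USP46, which share UAF1, had similar mean signals, but USP46 went from 5.22 to 5.16 (-0.06) where USP12 was higher by 1.26, a gap of 1.32. OTUD7A and OTUD7B were 1.53 apart, KLHL9 and KLHL13 1.27, FBXO30 and FBXO40 1.21 and USP22 and USP51 1.13. In the last 4 pairs the gene that did not differ, or was lower, lay in the background range on both arrays. CUL4A and CUL4B were 0.18 apart and CUL7 and CUL9 0.09. USP4 was higher by 0.66 where USP15 went from 6.63 to 6.61.

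**Figure D5:**
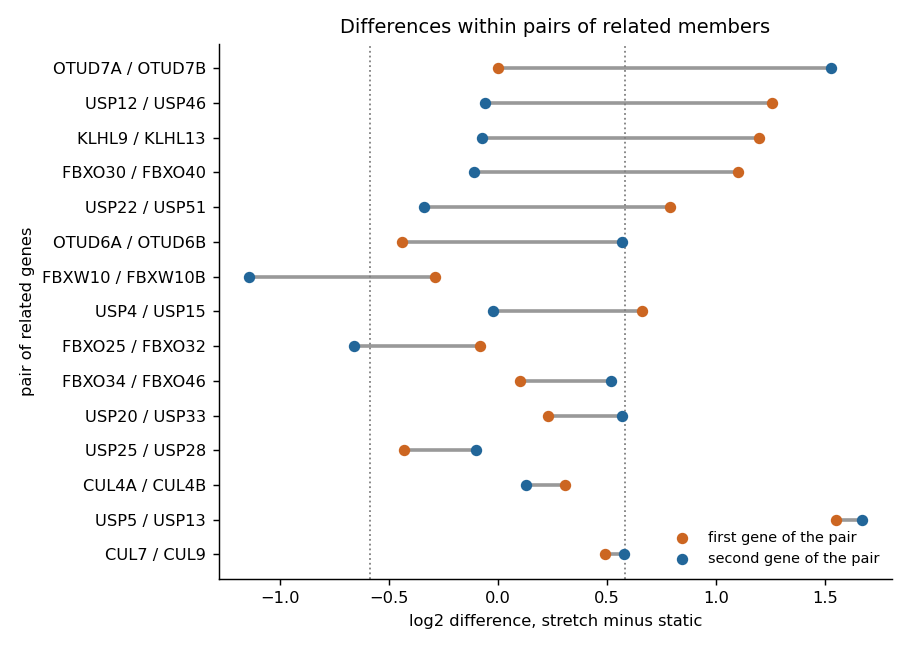
Log2 difference, stretch minus static, of both genes in 15 pairs of related members, ordered by the gap within the pair; the first-named gene is orange, the second blue, and dotted lines mark 1.5-fold. The gap runs from 0.09 (CUL7 and CUL9) to 1.53 (OTUD7A and OTUD7B), and USP5 and USP13 are the pair with both points right of 1.5-fold.

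Other genes of the ubiquitin system were read from lists made with earlier results of these data known, and their counts stand beside the 20.7% of all named genes that were higher and the 8.02% that were lower. Of 16 measured genes listed as deubiquitinases under symbols other than USP and OTUD, 5 were higher by 1.5-fold or more. The 1 lower gene was ALG13 (6.29 to 5.58), and the median was 0.31. The list was set by symbol and not by protein family. STAMBPL1, a zinc-dependent protease, went from 4.82 to 7.27 (2.45), JOSD1 from 4.15 to 5.56 (1.41) and YOD1 from 2.76 to 3.65 (0.89). Of 39 other cullin receptors, 18 (46.2%) were higher and 2 lower, with a median of 0.50. KCTD5, an adaptor of CUL3, went from 5.60 to 7.84 (2.24) and DCAF8, of CUL4, from 3.45 to 5.30 (1.85). Among the 25 of these at or above the background bound, 14 (56.0%) were higher, where all named genes there stood at 37.3%. Of the numbered receptors at that signal, KLHL stood at 54.5%, FBXO at 38.5% and all 3 F-box classes together at 31.8%. The list and its members were not tested against other genes.

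Of 19 measured core subunits and regulators of the cullin ligases, 4 (21.1%) were higher by 1.5-fold or more, 1 was lower and 0 passed 2-fold, with a median of 0.24. Of these 19, 15 reached the background bound, where 37.3% of all named genes were higher. ARIH2, a ligase that works with CUL5, went from 5.53 to 6.46 (0.93) and COPS7A, of the COP9 signalosome that removes NEDD8 from cullins, from 5.80 to 6.65 (0.85). UBE2R2, a conjugating enzyme of CUL1 ligases, went from 8.16 to 7.48 (-0.68). Of 23 activating and conjugating enzymes, 5 (21.7%) were higher and 0 lower, with a median of 0.12. Of these 23, 17 reached the background bound, where 37.3% of all named genes were higher and their median was 0.39. UBE2O went from 4.53 to 6.21 (1.68), UBE2E1 from 2.67 to 3.95 (1.28) and UBA1, the main ubiquitin-activating enzyme, from 8.14 to 9.31 (1.17). Of 21 HECT ligases, 11 (52.4%) were higher and 0 lower, with a median of 0.66, led by SMURF1 (5.88 to 7.66), WWP2 (4.88 to 6.05) and HERC1 (4.58 to 5.74). Of the 14 HECT genes at or above the bound, 8 (57.1%) were higher, beside the 37.3% of all named genes there. Of the ubiquitin genes themselves UBB was measured by name, at 4.77 and 4.53. The 30 proteasome subunits listed have no named probe set and were not analysed here.

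A list of short-lived proteins, most of them known substrates of members, was also spread. Of 17 measured, 9 (52.9%) were higher by 1.5-fold or more and 2 lower, with a median of 0.59. Of all named genes, 20.7% were higher and 8.02% lower. Of the 17, 11 had a mean signal at or above the background bound, where 37.3% of all named genes were higher. The list was not tested against other genes. MCL1, an anti-apoptotic protein that several of these ligases and proteases act on, went from 5.45 to 7.56 (2.11), and CRY1, a clock repressor that FBXL proteins act on, from 4.45 to 6.13 (1.68). EGR1, an early zinc finger factor, went from 8.69 to 6.74 (-1.95). MYC went from 6.25 to 7.86, JUN from 5.05 to 6.58 and YAP1 from 5.80 to 6.58, while NFE2L2, encoding NRF2, went from 7.23 to 7.30. These are RNA signals, and protein levels were not measured here.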

How the data were processed

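RNA of A549 cells was measured on Affymetrix expression arrays, 1 static and 1 stretched array, grouped by the samples' source names. 1 sample title, that of the stretched cells, writes the line's number with swapped digits. The deposited values are log2 signals of 53617 probe sets, made with RMA (background correction, normalization and probe summary) per the submitters' processing notes. The chip definition is not stated there. The sorted values of the columns differ by up to 0.45, so how the arrays were brought to 1 scale is unknown. No detection calls accompany these values, and RMA compresses low signals.

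Probe sets were named through the platform annotation: 16098 have 1 gene symbol and the other 37519 are unnamed here. All 165 members matched RefSeq by gene identifier with the same symbol. A gene was represented by its brightest probe set (mean of both arrays), and 5 members had more than 1. No level filter was applied in the counts. Signals of different probe sets are not an order of transcript abundance. The background bound is the 95th percentile of both signals of 24 measured genes of unrelated tissues.

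Members, lists and pairs were chosen with earlier results of these data known. Named members are those past 2-fold whose higher signal reached the bound, the next 4 per class by size of difference and the 3 brightest per class; for the 8 other ubiquitin and substrate lists, the 3 largest differences. Members named beyond that rule, and KEAP1 in the KLHL paragraph, MYC, JUN, YAP1 and NFE2L2, were chosen after their values were seen. Counting at 2-fold was run on simulated arrays with planted differences larger than that threshold and little noise. Recovery was thus largely fixed in advance, and the run does not bear on the 1.5-fold counts. Alternatives were level filters on the mean signal, the mean of all probe sets, 4 scalings, a 2-fold threshold, the mean in place of the median, and members without noncoding symbols or USP17L copies; ranges of signal were added after seeing the data. Python 3.11.15, numpy 2.4.6, pandas 2.3.3 and statsmodels 0.14.6 (loess span 0.3) were used.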

Additional observations from a re-analysis of the deposited data

How the results depend on the processing

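Of the 21 members past 2-fold, 11 to 20 remained so under the 4 scalings, as given above. The count of members at least 1.5-fold higher (44) was 26 with a mean signal at the background bound, 24 after quantile normalization, 29 after loess, 19 with reference genes and 19 at 2-fold. The count lower (8) was 2, 19, 18, 37, 2 and 4 in the same order. Leaving out the 2-fold setting, these were 2.70%, 11.5%, 10.9%, 22.4% and 2.42% of the members. Of all named genes, 4.45%, 11.0%, 9.43%, 26.6% and 5.42% were lower. The median (0.11) was 0.22 and 0.37 with the level filter at the median of all values and at the bound, 0.21 with median centring, 0.033 with loess, 0.13 without noncoding symbols or without USP17L copies, and 0.23 as a mean; it reversed to -0.01 with quantile normalization and -0.27 with reference genes.

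By class, genes higher in USP (14) numbered 7 with quantile normalization, 8 with loess, 6 with reference genes and 6 at 2-fold. The share of all named genes higher, 20.7% as deposited, was also smaller with quantile normalization, loess and reference genes, and was 9.07% at 2-fold. The shares of all named genes in the preceding paragraph are of genes lower, and do not serve as a background for these counts. FBXO (10) gave 5 at the bound, 5 with quantile normalization, 6 with loess, 5 with reference genes and 5 at 2-fold. KLHL (11) gave 6, 4, 7, 3 and 3. FBXL (3) gave 1 at the bound, with reference genes and at 2-fold; FBXW (3) gave 1 at the bound; OTUD (2) gave 1 at the bound, 4 with median centring, 1 with reference genes and 1 at 2-fold; CUL (1) gave 3 with median centring.

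Class medians that reversed were FBXO (0.05 and 0.41 with the level filters, 0.02 with median centring), FBXW (-0.10 with quantile normalization, -0.049 with loess, -0.24 with reference genes), CUL (-0.0025, -0.029 and -0.09 likewise), and USP (-0.19) and KLHL (-0.33) with reference genes. The cause of these shifts was not tested; the level filters test fewer genes. No paired analysis was possible because each group has 1 array. For the same reason no replicate could be left out. Dim signals limit the results: 82 of 165 members lay below the background bound on both arrays.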
